A study of Mus musculus with 22 samples.

Results

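Primary fibroblast cultures can carry a few macrophages, and 9 genes known from them were followed here through a reprogramming time course of mouse embryonic fibroblasts (MEFs). The genes were chosen by name: Lyz2, Cd68, Csf1r, Cd14, Tyrobp, Fcer1g, Laptm5, Ctss and Ptprc. They are 9 of the 24130 genes counted in each library, and all 9 were found by symbol. RNA was sequenced from OG2 transgenic MEFs at passage P2, of a mixed 129SVJ, C57B6 and CBA background. The cells were transfected for 2 days and then sampled on numbered days. In the OvSvK arm, which carries Oct4-vp16 and Sox2-vp16 (factors joined to a viral activation domain) with Klf4, days 0, 1, 2, 3 and 4 were sampled. The 3 omission arms were OSK without bFGF, OSK without vitamin C, and OSK without the GSK3 inhibitors CHIR-99021 and LiCl, each sampled on days 3 and 7. The OSK arm (Oct4, Sox2 and Klf4) was sampled on days 0, 1, 3, 5 and 7, and the GFP arm on days 1, 3, 5 and 7. Mouse embryonic stem cells (mESC, line OG2ES at passage P5) and MEFs at passage P2 labelled WT were present only in the table of the whole series. Each arm and day was 1 library, so no group had replicates. The error in a test is therefore the variation of an arm difference between days, or the scatter around a straight line over days.

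Macrophages are phagocytes that depend on signals through the CSF1 receptor and that take up and digest particles in lysosomes. Their surface receptors often lack a signalling tail of their own and pair with small adaptor proteins carrying an immunoreceptor tyrosine-based activation motif (ITAM), which recruit the kinase Syk. In bulk RNA a gene of a rare cell type can fall because there are fewer such cells or because each holds less of the RNA, and these cannot be told apart here.

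The 9 genes cover these functions. Lyz2 encodes lysozyme, which cuts bacterial cell walls (chr10:117277331-117282321, minus strand, mm10). Ctss encodes cathepsin S, a lysosomal protease of antigen presentation (chr3:95526786-95556403, plus strand), and Cd68 encodes a lysosomal membrane glycoprotein (chr11:69664213-69666153, minus strand). Csf1r encodes the CSF1 and IL-34 receptor, Cd14 the co-receptor that hands lipopolysaccharide to Toll-like receptor 4, and Ptprc the leukocyte phosphatase CD45 (chr1:138062861-138175708, minus strand). Tyrobp encodes the ITAM adaptor DAP12 (chr7:30413760-30417585, plus strand), and Fcer1g the common Fc receptor gamma chain, also an ITAM adaptor (chr1:171229572-171234365, minus strand). Laptm5 encodes a lysosomal membrane protein of blood cells (chr4:130913125-130936141, plus strand). Csf1r lies in part over Hmgxb3 on the opposite strand, which had 530 to 1683 expected counts per library, and whether the counting used strand is not given in the sources used here. Ctss overlaps the pseudogene Hmgb1-ps5, with 0 to 11 counts. Lyz1, the near-identical neighbour of Lyz2, had at most 1 count in any library.

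The promoters of 3 members that went apart in the data are printed here: Lyz2 and Fcer1g, high in the earliest libraries, and Laptm5, high in the later factor-treated ones. Each is 250 bases before to 50 after the annotated start (300 bases, RefSeq, GRCm38.p6), 5′ to 3′ on the gene's strand, and capitals mark the core of the PU box, GAGGAA on either strand, the motif bound by the macrophage factor PU.1.
Lyz2: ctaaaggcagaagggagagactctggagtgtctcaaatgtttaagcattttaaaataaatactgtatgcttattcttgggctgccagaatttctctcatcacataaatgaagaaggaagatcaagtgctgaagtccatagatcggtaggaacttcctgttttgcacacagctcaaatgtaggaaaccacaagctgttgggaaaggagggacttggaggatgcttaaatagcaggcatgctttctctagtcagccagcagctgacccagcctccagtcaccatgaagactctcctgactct
Fcer1g: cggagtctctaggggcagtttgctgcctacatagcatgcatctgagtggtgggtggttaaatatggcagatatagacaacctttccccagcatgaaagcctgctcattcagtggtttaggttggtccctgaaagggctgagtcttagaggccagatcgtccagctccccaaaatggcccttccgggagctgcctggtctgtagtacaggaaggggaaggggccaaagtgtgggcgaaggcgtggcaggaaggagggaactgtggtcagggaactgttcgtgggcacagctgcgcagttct
Laptm5: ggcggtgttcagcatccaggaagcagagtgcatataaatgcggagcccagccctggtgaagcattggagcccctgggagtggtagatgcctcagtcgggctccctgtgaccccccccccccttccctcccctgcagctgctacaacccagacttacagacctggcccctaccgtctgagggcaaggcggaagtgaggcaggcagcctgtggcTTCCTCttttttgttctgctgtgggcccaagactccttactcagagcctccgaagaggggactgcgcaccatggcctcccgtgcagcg

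The Lyz2 window is chr10:117282223-117282522 on the minus strand, the Fcer1g window chr1:171234300-171234599 on the minus strand, and the Laptm5 window chr4:130913066-130913365 on the plus strand. RefSeq windows of 6 members were analysed, while those of Csf1r, Cd14 and Tyrobp were not used here, and 4 of the 6 held GAGGAA in at least 1 window: Cd68, Ctss, Ptprc and Laptm5. Of all 32851 promoters in the table, 28.3% held it. In Laptm5 the match starts at base 213 and lies on the opposite strand, so it reads TTCCTC as printed. Lyz2 and Fcer1g had no match in these windows, which says only that these letters are not there. The windows held 1 CG dinucleotide in Lyz2, 7 in Fcer1g and 9 in Laptm5, against a median of 7 over all promoters (quartiles 3 and 20).

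Expected counts (RSEM estimates that share ambiguous reads among genes) totalled 7872277 to 20720718 per library. Levels are given as CPM (counts scaled to a common library size) after scaling each total by its TMM factor, with exact 95% Poisson intervals that cover counting error only. A count of 0 allows up to 0.147 to 0.399 CPM, by library. The OSK day 0 library stands apart from the rest, with a TMM factor of 0.674 and the highest values of several members. It also has a GC trend: against the mean of all libraries, its genes of lowest GC content (the bottom 20%) lay at -1.76 (median, log2) and those of highest GC content (the top 20%) at 1.16. GFP day 1 had -1.03 and 0.36, and the other 18 libraries lay between -0.43 and 0.6 and between -0.33 and 0.27. The changes over OSK and GFP days are measured against these 2 libraries, so ratios of the members are also given from the next sampled day, and the part of the GC trend in them was not tested. A second mark splits the libraries: the pseudogene Rpsa-ps10 took 3.32 to 7.78% of the counts of Rpsa and Rpsa-ps10 in 8 libraries (the OSK libraries after day 0 and all of GFP) and 0.124 to 0.476% in the other 12. OSK against GFP, and the changes over days within OvSvK and within GFP, lie inside 1 of these sets. The comparisons of OvSvK or an omission with OSK, and of later OSK days with day 0, cross them, and there the set and the arm or day cannot be told apart.

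The earliest libraries held RNA of all 9 genes, and 5 of them, set apart after their values were seen, shared a pattern: Lyz2, Csf1r, Cd14, Tyrobp and Fcer1g were highest on the first sampled day of OvSvK, OSK and GFP, in CPM and in TPM. Ctss was highest on these days too in CPM, but in TPM its OSK values on days 1 and 3 were above day 0. On OvSvK day 0 they had 235, 42, 31, 17 and 11 expected counts. On OSK day 0 they had 1680, 274, 260, 88 and 52, and on GFP day 1, the earliest GFP library, 380, 26, 86, 14 and 15. Per transcript length, Lyz2 led this set with 50.3 TPM on OvSvK day 0, 128 on OSK day 0 and 74.9 on GFP day 1. Tyrobp had 8.6, 16 and 6.53 TPM in the same libraries, Fcer1g 4.58, 7.95 and 5.76, Cd14 5.3, 15.8 and 13.5, and Csf1r 2.39, 6.47 and 1.32. In CPM, Lyz2 had 31.3 on OvSvK day 0, 120.3 on OSK day 0 and 47.7 on GFP day 1. The 10 listed fibroblast markers summed to 16398 CPM on OvSvK day 0, 27713 CPM on OSK day 0 and 13459 CPM on GFP day 1. The set is thus of low abundance beside the fibroblast genes, though 1 gene is set here against a sum of 10.

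Relative to lysozyme, the adaptors Tyrobp and Fcer1g had overlapping shares in the 3 first libraries. The shares of Csf1r, Cd14, Ctss and Adgre1 did not all overlap, nor did those of Cd68, Laptm5 and Ptprc. Tyrobp had 7.23% of the Lyz2 count on OvSvK day 0 (exact 95% interval 4.14 to 11.8), 5.24% on OSK day 0 (4.18 to 6.49) and 3.68% on GFP day 1 (2 to 6.26). Csf1r had 17.9% on OvSvK day 0 (12.6 to 24.9), 16.3% on OSK day 0 (14.3 to 18.5) and 6.84% on GFP day 1 (4.41 to 10.2). The Csf1r share was thus lower in GFP than in either factor arm. Cd14 had 13.2% on OvSvK day 0 (8.76 to 19.2), 15.5% on OSK day 0 (13.5 to 17.6) and 22.6% on GFP day 1 (17.7 to 28.7), higher in GFP than in OSK. Adgre1, which encodes the macrophage antigen F4/80, had 12.3% on OvSvK day 0 (8.09 to 18.2), against 4.35% on OSK day 0 (3.39 to 5.49), and 7.11% on GFP day 1 (4.62 to 10.5). The Ctss share was lowest on OSK day 0, at 1.43% (0.913 to 2.13), with 7.23% on OvSvK day 0 (4.14 to 11.8) and 5.79% on GFP day 1 (3.59 to 8.9). The macrophage genes thus did not all stand in 1 ratio to Lyz2 across these libraries. Shares of C1qa, C1qb, C1qc, Spi1 and Trem2 had intervals that overlapped in all 3, as those of the adaptors did. On OvSvK day 0, against OSK day 0, Lyz2 was 3.85 times lower (95% interval 3.35 to 4.43), Cd14 4.51 times (3.1 to 6.78), Csf1r 3.51 times (2.53 to 4.98), Tyrobp 2.79 times (1.64 to 5) and Fcer1g 2.54 times (1.31 to 5.41). The 5 genes were thus all lower on OvSvK day 0 than on OSK day 0 beyond counting error in CPM, in 1 library of each. In TPM the gaps were smaller, with Lyz2 at 50.3 against 128, Cd14 at 5.3 against 15.8 and Csf1r at 2.39 against 6.47. Tyrobp had 8.6 against 16 TPM and Fcer1g 4.58 against 7.95, and no interval is given on that scale.

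Other macrophage genes were present in the same early libraries. Spi1, which encodes PU.1, had 5 counts on OvSvK day 0, 83 on OSK day 0 and 11 on GFP day 1. The complement chain genes C1qa, C1qb and C1qc had 12, 11 and 14 counts on OvSvK day 0, 81, 104 and 90 on OSK day 0, and 8, 11 and 9 on GFP day 1. Adgre1 had 29, 73 and 27. The 5 genes above and these markers, chosen after their values were seen, were thus present together in the early libraries. Other listed macrophage genes did not all follow them over days, as given below for Mpeg1, Itgb2 and Cd53. The label of a macrophage trace did not describe Laptm5 in the factor-treated arms, where it was higher over the later days together. The 5 genes were lower over those days, and Cd68 and Ptprc did not follow them either.

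**Figure D1:**
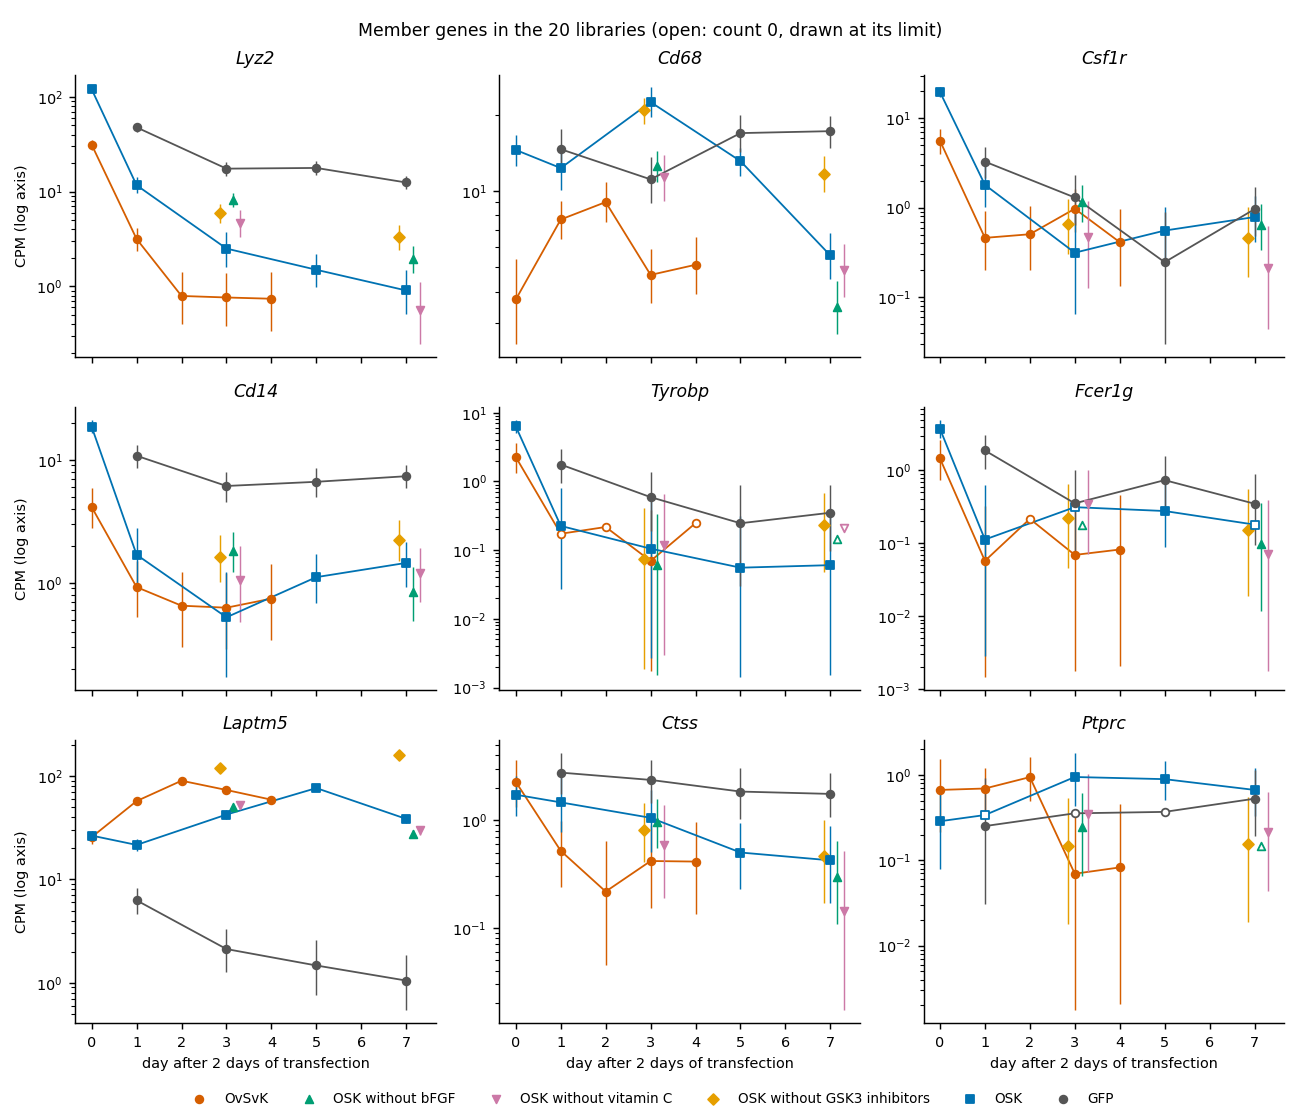
Level of each member in every library, in CPM on a log axis against the day after transfection, with exact 95% Poisson bars and 1 library per point, open points being counts of 0 drawn at their limit. Lyz2, Csf1r, Cd14, Tyrobp, Fcer1g and Ctss are highest on the first day of OvSvK, OSK and GFP, and Laptm5 is higher in every factor-treated library than in all 4 GFP libraries.

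Lysozyme showed the clearest loss. In OvSvK, Lyz2 had 31.3 CPM on day 0 (95% interval 27.4 to 35.5), then 3.17, 0.794, 0.765 and 0.742 CPM on days 1 to 4. In OSK it had 120.3 CPM on day 0 (115 to 126) and 11.7, 2.51, 1.5 and 0.907 CPM on days 1, 3, 5 and 7. In GFP it had 47.7 CPM on day 1 (43.1 to 52.8) and 17.5, 17.8 and 12.5 CPM on days 3, 5 and 7. Both factor arms thus went down to under 1 CPM, and the lowest GFP library lay above every OSK library of days 1 to 7. That GFP library, of day 7 (10.6 to 14.8), still overlapped OSK day 1 (9.57 to 14.2) in its interval. How many of all genes part OSK from GFP in this way is not given here. Over the later days together, Lyz2 was 21 times lower than on day 0 in OvSvK (95% interval 16.3 to 27.2) and 37.5 times lower than on day 0 in OSK (32 to 44.2), or 16.3 times on the TPM scale. With OSK day 0 left aside, days 3 to 7 were 7.83 times lower than day 1 (5.69 to 10.8), and in GFP days 3 to 7 were 3.07 times lower than day 1 (2.67 to 3.53). With GFP day 1 left aside, GFP days 5 and 7 were 1.19 times lower than day 3, with an interval that includes no change (0.966 to 1.45).

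Most of the loss in the factor arms lay between day 0 and day 1, where the level was 3.17 against 31.3 CPM in OvSvK and 11.7 against 120.3 CPM in OSK. The last library still held 9 Lyz2 counts in OvSvK and 15 in OSK, low but not 0. By the slope of a line over days, fitted for the 3 main arms in 1 model with edgeR's quasi-likelihood test, Lyz2 fell by 1.46 ± 0.31 (SE) on the log2 scale per day in OvSvK (Benjamini-Hochberg adjusted p = 0.0146). In this slope 5.81% of the 13848 genes tested fell. In OSK it fell by 1.01 ± 0.18 per day (adjusted p = 0.00183), where 24.0% of genes fell. In GFP the slope was -0.30 ± 0.20 per day (adjusted p = 0.371). The OSK slope of Lyz2 was still past the threshold without OSK day 0, at -0.62 per day (adjusted p = 0.0248), while in OvSvK the slope without day 0 was -0.71 (adjusted p = 0.581) and without day 3 -1.41 (adjusted p = 0.0607).

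The receptor genes Csf1r and Cd14 also dropped early but then stayed at a low level. Csf1r had 5.59, 0.46, 0.505, 0.973 and 0.412 CPM on OvSvK days 0 to 4. On OSK days 0, 1, 3, 5 and 7 it had 19.6, 1.8, 0.314, 0.555 and 0.786 CPM, and on GFP days 1, 3, 5 and 7 it had 3.27, 1.3, 0.246 and 0.963 CPM. The 3 arms overlapped from day 3 on, at 2 to 14 counts per library. Over the later days Csf1r was 9.49 times lower than on day 0 in OvSvK (95% interval 5.9 to 15.4), 24.8 times lower in OSK (17.8 to 35.1) and, against day 1, 3.82 times lower in GFP (2.11 to 6.94). In TPM the OSK ratio was 13. From OSK day 1 it was 3.06 (1.53 to 5.92), and from GFP day 3 it was 1.95 (0.792 to 4.72).

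Cd14 separated the factor arms from GFP. It had 4.13, 0.921, 0.65, 0.626 and 0.742 CPM on OvSvK days 0 to 4. On OSK days 0, 1, 3, 5 and 7 it had 18.6, 1.69, 0.523, 1.11 and 1.45 CPM, and on GFP days 1, 3, 5 and 7 it had 10.8, 6.13, 6.63 and 7.36 CPM. All 4 GFP libraries thus lay above every OSK and OvSvK library after day 0. How many of all genes part these arms in the same way is not given here. The later OSK days were 15.4 times lower than day 0 (11.7 to 20.6; 8.53 times in TPM), but days 3 to 7 were 1.52 times lower than day 1, with an interval that includes no change (0.792 to 2.76). In GFP the later days were 1.59 times lower than day 1 (1.22 to 2.07) and days 5 and 7 at 1.15 of day 3 (0.831 to 1.61). In OSK both slopes passed the test, with Csf1r at -0.67 ± 0.20 per day (adjusted p = 0.0203) and Cd14 at -0.50 ± 0.16 (adjusted p = 0.0251), but they rest on OSK day 0: without it they were -0.19 (adjusted p = 0.575) for Csf1r and -0.00 (adjusted p = 0.988) for Cd14. Without OSK day 5 they also missed the threshold, at adjusted p = 0.0631 and 0.0707.

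The ITAM adaptors were nearly gone from the factor arms after day 0. Tyrobp had 17, 0, 0, 1 and 0 expected counts on OvSvK days 0 to 4. It had 88, 2, 1, 1 and 1 on OSK days 0, 1, 3, 5 and 7, and 14, 5, 2 and 4 on GFP days 1, 3, 5 and 7. A single Tyrobp count was thus the most that any OvSvK library held after day 0. Fcer1g had 11, 1, 0, 1 and 1 counts in OvSvK, 52, 1, 0, 5 and 0 across OSK, and 15, 3, 6 and 4 across GFP. Over the later OSK days, Tyrobp was 66.8 times lower than on day 0 (5 counts against 88, 95% interval 27.6 to 211) and Fcer1g 32.9 times lower (6 counts against 52, 14.1 to 93.7). In OvSvK the ratio for Tyrobp was 131 (1 count against 17, 20.5 to 5459) and for Fcer1g 28.2 (3 counts against 11, 7.44 to 157). Against GFP day 1, the later GFP days held 4.48 times less Tyrobp (1.89 to 10.9) and 4.06 times less Fcer1g (1.8 to 9.28). These drops rest on the first library. From OSK day 1 the ratio (first day over later days) was 3.31 for Tyrobp (0.277 to 28.9) and 0.993 for Fcer1g (0.021 to 8.88), on 1 or 2 counts, and from GFP day 3 it was 1.92 (0.464 to 7.56) and 0.692 (0.122 to 2.69), so no further change was detectable at this depth. In TPM the ratios to OSK day 0 were 31 and 21.3.

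Neither adaptor, nor Ptprc, passed the filter on low counts, so the 3 had no test in the edgeR fits reported elsewhere. With no filter, edgeR called Tyrobp lower over the days of OvSvK (-2.29 per day, adjusted p = 0.0386) and of OSK (-1.13, adjusted p = 0.00643) and in OSK against GFP (-2.47, adjusted p = 0.0378). It called Fcer1g over the OSK days (-0.84, adjusted p = 0.0271), and not in OSK against GFP (-2.91, adjusted p = 0.0541). DESeq2 called Tyrobp in both slopes (adjusted p = 0.047 in OvSvK and 0.00957 in OSK) but not in OSK against GFP (adjusted p = 0.0586), where it called Fcer1g (-3.47, adjusted p = 0.0321). Ptprc was called in none of these comparisons.

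Macrophage genes outside the 9 were split over days. Of the 20 listed, 8 were tested for a slope, with 1 higher and 1 lower in OvSvK (median 0.00 per day, all genes 0.00), 1 higher and 2 lower in OSK (median -0.03, all genes -0.01) and 0 called in GFP (median -0.10, all genes 0.00). Among all genes tested, 5.81% were lower in the OvSvK slope and 24.0% in the OSK slope. In the GFP slope 4.80% were called in either direction. By counts alone, 13 of the 20 were lower on the later OSK days than on day 0 beyond their 95% interval and 2 higher, while from OSK day 1 on 0 were lower and 4 higher. In OvSvK 9 were lower than on day 0 and 3 higher, and in GFP 8 were lower than on day 1 and 1 higher. The share of all genes that pass this counting rule is not given here. These counts therefore cannot be read as particular to macrophage genes.

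Defining markers were among those lower on the later OSK days. With counts summed over days 1 to 7, against day 0, Spi1 was 78.7 times lower (4 counts against 83, 95% interval 29.6 to 296), C1qb 78.9 times (5 against 104, 32.8 to 248), and Adgre1 21.3 times (13 against 73, 11.7 to 41.9). These ratios rest on OSK day 0 as well: from day 1 on they were 1.66 (0.0315 to 20.6), 7.45 (0.853 to 89.2) and 3.1 (0.799 to 10.8), each with an interval that includes no change. In GFP, days 3 to 7 against day 1, the ratio was 12.9 for Spi1 (3 against 11, 3.41 to 72.1), 1.68 for C1qb (23 against 11, 0.742 to 3.6) and 3.17 for Adgre1 (30 against 27, 1.81 to 5.52). C1qb thus had an interval that includes no change in GFP. The 10 fibroblast markers were lower late in the factor arms as well, at 2828 summed CPM on OvSvK day 4 and 2369.7 on OSK day 7, against 27166 on GFP day 7, and their part in the members' values was not tested.

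**Figure D2:**
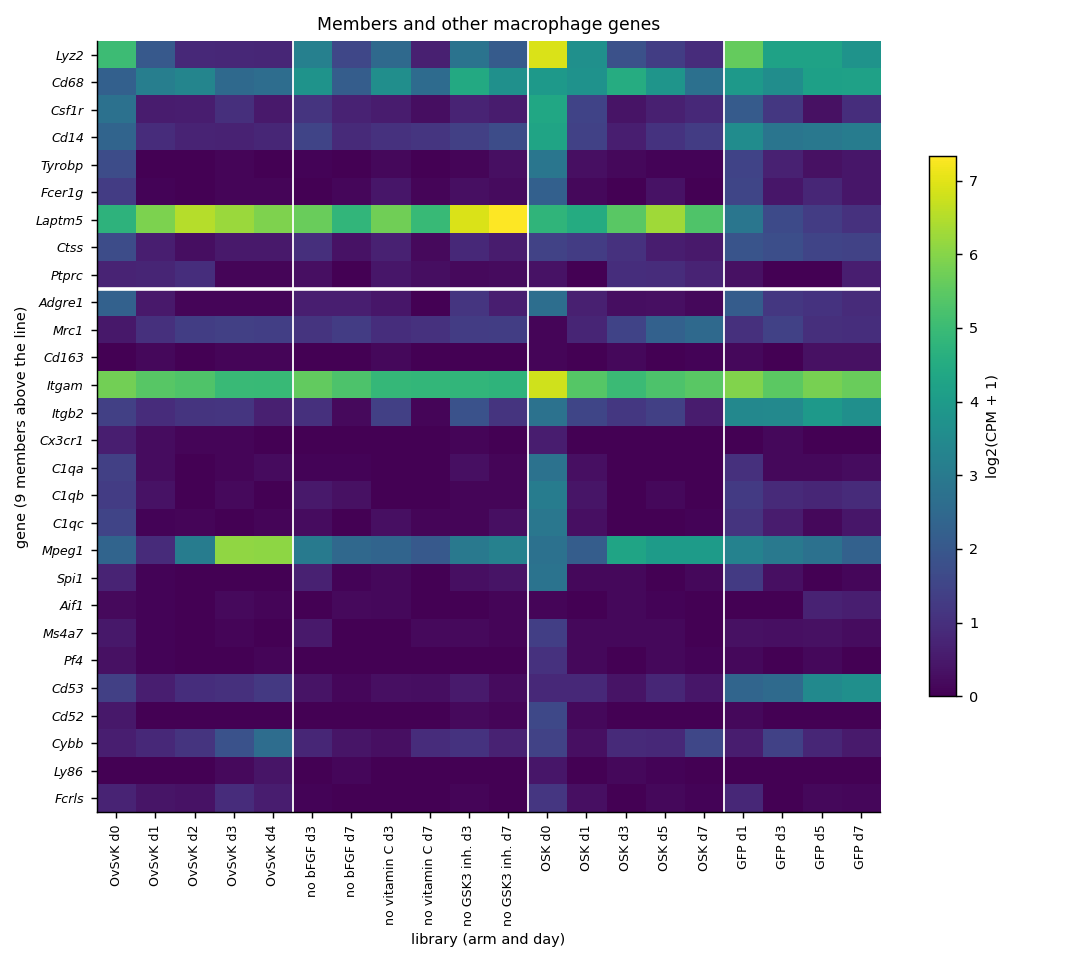
Levels of the 9 members (above the line) and of 19 of the 20 other macrophage genes in the 20 libraries, as log2(CPM + 1), with the arms side by side and days running left to right within an arm. The OSK day 0 column is the brightest for Lyz2, Csf1r, Cd14, Tyrobp and Fcer1g, and the Laptm5 row is dark in GFP.

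Laptm5 went the other way in the cells given factors. It had 25.7, 57.4, 90.4, 73.5 and 59.2 CPM on OvSvK days 0 to 4. On OSK days 0, 1, 3, 5 and 7 it had 26.6, 21.6, 42.5, 76.7 and 38.6 CPM, and on GFP days 1, 3, 5 and 7 it had 6.28, 2.12, 1.47 and 1.05 CPM. The lowest factor-treated library was above the highest GFP library, and the share of all genes split in this way is not given here. Over the later days Laptm5 was 2.71-fold higher than on day 0 in OvSvK (95% interval 2.35 to 3.15) and 1.85-fold higher in OSK (1.66 to 2.07), while in GFP it was 4.19 times lower than on day 1 (2.73 to 6.48). In TPM the OSK ratio was 3.59, and from OSK day 1 in CPM it was 2.54 (2.19 to 2.96). Days 5 and 7 of GFP were 1.73 times lower than day 3, with an interval that includes no change (0.885 to 3.32). In GFP the gene was lower on later days like the macrophage set, at 8.39% of the Lyz2 count on day 7 (4.24 to 15.1) and 13.2% on day 1 (9.59 to 17.7). In the factor arms that share was 7978% on OvSvK day 4 (4179 to 17518) and 82.1% on OvSvK day 0, and 4253% on OSK day 7 (2559 to 7645) and 22.1% on OSK day 0.

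The slopes of Laptm5 were 0.27 per day for OvSvK (adjusted p = 0.382), 0.18 for OSK (adjusted p = 0.146) and, for GFP, -0.43 ± 0.13 (adjusted p = 0.0716), none past the threshold. The difference of the slopes, OSK minus GFP, was 0.60 ± 0.16 per day (adjusted p = 0.0478), where 2.85% of genes were called higher. This call was lost in 14 of 19 alternatives, among them leaving out OSK day 0 (0.60, adjusted p = 0.0904) or GFP day 1 (0.43, adjusted p = 0.551).

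Cd68 and Ptprc followed neither course closely. Cd68 ranged over 3.73 to 9.03 CPM in OvSvK, 5.56 to 22.4 in OSK, 3.48 to 20.8 in the omission arms and 11.1 to 17.2 in GFP. Its lowest OvSvK value was on day 0, where Lyz2 was highest, and its highest OSK value was on day 3. Over the later days together Cd68 was 1.8-fold higher than on day 0 in OvSvK (95% interval 1.23 to 2.75), at 0.848 of day 0 in OSK (0.723 to 0.998) and at 1.05 of day 1 in GFP (0.851 to 1.3). The OSK value turned with the scale and the first library: in TPM the later days were at 1.75 of day 0, with 15.8 TPM on day 0 and 22.9, 49.7, 27.1 and 11.2 TPM later, and in CPM from day 1 on at 0.999 of it (0.812 to 1.24). From GFP day 3, Cd68 was 1.54-fold higher on days 5 and 7 (1.22 to 1.96). Its slopes were -0.01, -0.15 and 0.06 per day in these arms, none past the threshold.

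Ctss ran closer to Lyz2 than Cd68 did, with a smaller change in OSK, where it had 1.72, 1.46, 1.05, 0.5 and 0.423 CPM on days 0, 1, 3, 5 and 7. It had 2.26, 0.518, 0.217, 0.417 and 0.412 CPM on OvSvK days 0 to 4 and 2.76, 2.36, 1.84 and 1.75 CPM on GFP days 1, 3, 5 and 7. GFP lay above OSK and OvSvK on every matched day, and the share of all genes that do so is not given here. The later OSK days together were 2.34 times lower than day 0 (95% interval 1.34 to 3.98), and days 3 to 7 were 2.48 times lower than day 1 (1.17 to 5.01). In TPM, OSK had 1.7 on day 0 and 2.46, 2.1, 0.94 and 0.77 later, so the later days were 1.08 times lower than day 0. The OSK slope was -0.31 ± 0.11 per day (adjusted p = 0.0411), but it passed in 7 of 19 alternatives only, with adjusted p from 0.0121 to 0.17. Ptprc had at most 16 counts in any library, with 5, 12, 13, 1 and 1 in OvSvK, 4, 0, 9, 16 and 11 across OSK, and 2, 0, 0 and 6 across GFP. CD45, the defining leukocyte antigen, was thus sparse in every library, and the later OSK days were at 2.37 times the level of day 0, with an interval that includes no change (95% interval 0.85 to 9.17).

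OSK was compared with GFP on the 4 days that both were sampled, with day as a block. Of the 9 members 5 passed the filter: Lyz2, Cd14 and Ctss fell relative to GFP, Laptm5 rose, and Cd68 was not past the threshold. Over all 12680 genes tested, 14% were lower and 16.8% higher, and the median difference was -1.47 over the 5 members against 0.05 over all genes. Lyz2 was 4.08, 6.95, 11.9 and 13.8 times lower in OSK than in GFP on days 1, 3, 5 and 7, with a fitted difference of -3.00 ± 0.36 on the log2 scale (edgeR, adjusted p = 0.00428). Cd14 was 6.4, 11.7, 5.97 and 5.07 times lower on these days (-2.72 ± 0.31, adjusted p = 0.00376). Both calls held in all 9 alternatives run.

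Laptm5 was 3.44-, 52- and 36.7-fold higher in OSK than in GFP on days 1, 5 and 7, and had 42.5 against 2.12 CPM on day 3, with a fitted difference of 4.20 ± 0.73 (adjusted p = 0.0122). The call was lost without day 3 (4.19, adjusted p = 0.0642) and without day 5 (3.73, adjusted p = 0.0596). Ctss was 1.89, 2.25, 3.68 and 4.14 times lower on the 4 days (-1.47 ± 0.36, adjusted p = 0.0309), and this was lost without day 3, 5 or 7, at adjusted p of 0.112, 0.159 and 0.073. Cd68 had 12.3, 22.4, 13.1 and 5.56 CPM in OSK, against 14.6, 11.1, 16.9 and 17.2 CPM in GFP (-0.31 ± 0.44, adjusted p = 0.613), and its direction changed between days. Csf1r did not pass the filter, and its OSK libraries (3 to 16 counts) overlapped those of GFP (2 to 26 counts).

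**Figure D3:**
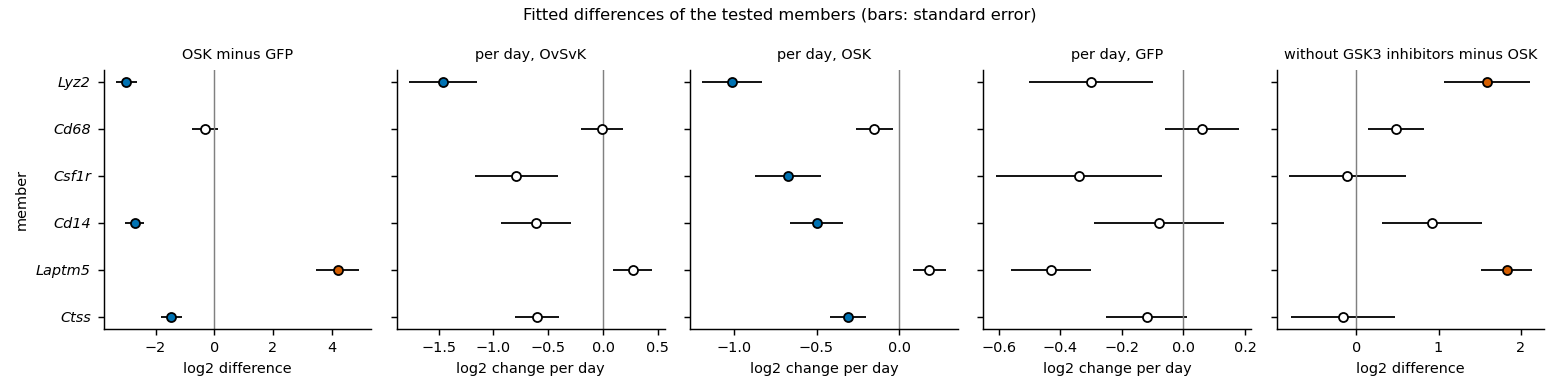
Fitted log2 differences or log2 changes per day of the members that passed the filter, with standard errors, in 5 comparisons; orange is higher and blue lower past an adjusted p of 0.05, and white is not past it. Lyz2 is blue in OSK minus GFP and in the OvSvK and OSK slopes, and Laptm5 is orange in OSK minus GFP and without GSK3 inhibitors minus OSK.

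OvSvK and OSK share days 0, 1 and 3. In that comparison no gene passed the edgeR threshold, so 0% of 12910 genes were called, with 2991 at an unadjusted p under 0.05. DESeq2, run as an alternative, called 1749 of 13569 genes (12.9%), among them Lyz2 and Cd68, both lower. In OvSvK, Lyz2 had 31.3, 3.17 and 0.765 CPM on days 0, 1 and 3, against 120.3, 11.7 and 2.51 CPM in OSK, lower on each of the 3 days (-1.85 ± 0.35, adjusted p = 0.0546). Cd68 had 3.73, 7.71 and 4.66 CPM in OvSvK, against 14.5, 12.3 and 22.4 CPM in OSK (-1.61 ± 0.45, adjusted p = 0.1). The other tested members had differences from -1.10 (Cd14) to 0.73 (Laptm5), and these libraries fall in the 2 sets of differing Rpsa-ps10 share on days 1 and 3. The day 0 pair falls in a single set.

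In the GFP slopes, 0 of the 6 tested members passed the edgeR threshold, and 4.80% of all genes did in either direction. At an unadjusted p under 0.05 there was 1 member, Laptm5 (edgeR, unadjusted p = 0.00639), which DESeq2 called. In the slope difference of OvSvK minus GFP, where 7.29% of genes were called in either direction, Lyz2 was -1.16 ± 0.37 per day (adjusted p = 0.0799) and Laptm5 0.70 ± 0.22 (adjusted p = 0.0829). Both had an unadjusted p under 0.05, and DESeq2 called both. The corresponding value of Lyz2 in OSK minus GFP was -0.72 ± 0.26 (adjusted p = 0.133). A steeper Lyz2 slope in either factor arm than in GFP was thus not past the threshold. These slopes span unlike days. Most of the Lyz2 loss in the factor arms lay between day 0 and day 1, and GFP has no day 0 library. The slope differences therefore cannot decide whether Lyz2 was lost faster than in GFP over that interval.

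Of the 6 libraries in which a component was left out of OSK, 5 had more Lyz2 than OSK on the same day. Without bFGF, Lyz2 had 8.22 and 1.96 CPM on days 3 and 7. It had 4.69 and 0.567 CPM without vitamin C, and 5.91 and 3.31 CPM without the GSK3 inhibitors, against 2.51 and 0.907 CPM in complete OSK. The library without vitamin C on day 7 was thus the only one below its OSK match, at 0.626 of it (8 counts against 15, 95% interval 0.23 to 1.57). Without GSK3 inhibitors the fitted difference was 1.59 ± 0.52 (adjusted p = 0.0498), where 9.97% of 14191 genes were called higher. It was past the threshold in 6 of 13 alternatives, and without the day 7 library of that arm it was 0.88 (adjusted p = 0.443). Without bFGF the difference was 1.43 ± 0.51 (unadjusted p = 0.0184, adjusted p = 0.0906) and without vitamin C 0.33 ± 0.55 (adjusted p = 0.836).

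Among the 20 libraries, Laptm5 was highest in the arm without GSK3 inhibitors. There it had 119.8 and 159.6 CPM on days 3 and 7, against 42.5 and 38.6 CPM in OSK, a difference of 1.83 ± 0.31 (adjusted p = 0.00479). The day 7 value corresponds to 169 TPM, the highest TPM of any member in the 20 libraries. The call was lost without the day 7 library of that arm (1.21, adjusted p = 0.0874) and in a fit over all 20 libraries (1.91, adjusted p = 0.0877). Laptm5 had 49.8 and 27.5 CPM without bFGF, and 52.8 and 29.9 CPM without vitamin C, which was 0.712 to 1.24 of OSK on the same day. No member passed the threshold without bFGF, where 12.5% of genes were called in either direction, or without vitamin C, where 0.296% were. At an unadjusted p under 0.05 there were 2 members without bFGF (Lyz2 and Cd68) and 0 without vitamin C. The OSK libraries of these comparisons lie in the other set by Rpsa-ps10 share.

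The receptors and ligands around the members moved in mixed directions between OSK and GFP. Of 8 genes listed for the CSF1 receptor pathway 5 were tested, and 1 was higher and 3 lower (median -1.17, all genes 0.05). The 2 ligands of the Csf1r protein were split: Il34 was higher in OSK (3.75, adjusted p = 0.00186) and Csf1 lower (-1.17, adjusted p = 0.0111). Cebpa, a myeloid transcription factor, was also lower (-2.14, adjusted p = 0.0395). Csf1 had 70.5 to 374 CPM in OSK and 156 to 244 CPM in GFP, and Il34 6.3 to 67.2 CPM in OSK and 1.53 to 4.9 CPM in GFP. Here and in the next paragraph, the fitted differences leave out OSK day 0, which has no GFP match.

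Most listed ITAM pathway genes were too low to test, and those called were higher in OSK than in GFP. Of 13 listed genes 4 were tested in OSK against GFP, with 2 higher and 0 lower: Fcgr2b, an inhibitory Fc receptor that does not need Fcer1g (3.78, adjusted p = 0.00571), and Syk (2.78, adjusted p = 0.0429). Trem2 and Fcgr3, which pair with Tyrobp (Trem2) and Fcer1g (Fcgr3), were too low for the test and were lower with them on the later OSK days than on day 0, by 93.6 times for Trem2 (3 counts against 74, 95% interval 30.8 to 464) and 26.1 times for Fcgr3 (8 against 55, 12.4 to 63.4). From OSK day 1 on, Trem2 was 9.93 times lower (0.517 to 586) and Fcgr3 at 1.41 of day 1 (0.181 to 63.5), on 1 or 2 counts. Syk had 61.9 to 131 CPM in OSK, against 7.01 to 61.7 CPM in GFP. Around Cd14, 8 of 11 Toll-like receptor pathway genes were tested, with 2 higher in OSK than in GFP (Tlr2, 1.05, adjusted p = 0.0424, and Tlr3, 1.37, adjusted p = 0.0197) and 2 lower (Myd88, -0.56, adjusted p = 0.043, and Ticam1, -1.10, adjusted p = 0.0109). Tlr4, the receptor that Cd14 serves, had 1.58 to 16 CPM in OSK and 3.27 to 61.7 CPM in GFP.

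Lysosomal genes that most cells use were also lower in OSK than in GFP in 8 of 15 and higher in 1 (median -1.01, all genes 0.05), with Ctsb at -2.77 (adjusted p = 0.0113) and Ctsl at -2.79 (adjusted p = 0.0215). The decline of Ctss and the level of Cd68 thus stand beside a wider difference of lysosomal genes between these arms, and their relation was not tested. Of the 20 other macrophage genes 6 were tested in OSK against GFP, with 1 higher and Itgb2 and Cd53 lower (-3.23, adjusted p = 0.00519, and -3.79, adjusted p = 0.00483). Itgb2, an integrin chain of leukocytes, and Cd53, a leukocyte tetraspanin, did not decline in GFP as Lyz2 did: Itgb2 had 9.8, 9.9, 14.7 and 11.6 CPM there on days 1, 3, 5 and 7, and Cd53 4.27, 4.83, 10.2 and 11.5 CPM. Mpeg1, a pore protein of macrophages, went against the set in OvSvK, with 4.13, 0.863, 7.44, 67.6 and 67 CPM on days 0 to 4 (1.34 per day, adjusted p = 0.0199). Adgre1 fell there (-1.76 per day, adjusted p = 0.012).

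Markers of other blood cells were sparse or led by genes with wider use. The 8 pan-leukocyte genes summed to 33.5 to 117 CPM in OvSvK, 36.7 to 282 in OSK, 31.1 to 103 in the omission arms and 404 to 530.3 in GFP, most of it Arhgdib. The 7 neutrophil genes summed to at most 11.7 CPM in OvSvK, 8.39 in OSK, 19.3 in the omission arms and 4.82 in GFP, with Elane and Retnlg at 0 in all 20 libraries. The 6 mast cell genes found summed to at most 2.06, 0.628, 1.67 and 0.628 CPM in the same order, with Tpsb2 at 0 throughout. The 9 T and B lymphocyte genes summed to at most 59.5, 34, 51.5 and 2.89 CPM, with Ms4a1 at 0 throughout, and their highest sums were on OvSvK day 4, OSK day 7 and day 7 without GSK3 inhibitors. The 6 osteoclast genes, some shared with macrophages, summed to 38.9 to 49.8 CPM in OvSvK, 36.1 to 149.8 in OSK and 107 to 1035 in GFP, and the 8 endothelial genes to 90.5 to 203, 39.5 to 205 and 18.5 to 23. Within the GFP arm, the osteoclast sum was lowest on day 1 and highest on day 7, most of it Ctsk (cathepsin K). Acp5, an acid phosphatase of osteoclasts and macrophages, had 3.02, 4.95, 7.98 and 12.5 CPM on GFP days 1, 3, 5 and 7 and rose (0.34 per day, adjusted p = 0.045), the only call among the 3 osteoclast genes tested. Atp6v0d2, a proton pump subunit of osteoclasts, had 0.126, 1.41, 3.19 and 11.4 CPM there. Both were highest on GFP day 7, where Lyz2 had its lowest GFP value, and their part in the members' values was not tested. In OSK against GFP the call was higher for Ltf (neutrophil list, 1 of 1 tested) and 1 of 4 endothelial genes. It was lower for Arhgdib (1 of 3 tested leukocyte genes) and 6 of 10 fibroblast genes (median -3.12). Also lower were 1 of 2 osteoclast genes and 2 of 4 endothelial genes. Ltf (6.57) passed the filter through the OSK libraries, where it is high, so its call is not an independent result. The other listed neutrophil genes were too low to test, so the call does not describe that list. In OSK against GFP 3895 of 12680 genes were called in either direction. Neither tested lymphocyte gene was called, and no mast cell or pluripotency gene passed the filter there. In the slopes, Lck of the lymphocyte list rose in OvSvK (1.68 per day, edgeR, adjusted p = 0.00112) and in OSK (0.48, adjusted p = 0.00215). Without GSK3 inhibitors, against OSK, Cd3g was higher (2.05, adjusted p = 0.0186) and Lck lower (-1.44, adjusted p = 0.0212). In that comparison 3309 of 14191 genes were called in either direction. Over days, 5 of 5 tested pluripotency genes rose in OvSvK and in OSK, where 1426 and 6298 of 13848 genes were called in either direction. The 6 listed pluripotency genes summed to at most 0.879 CPM in GFP, but to 522 CPM on OvSvK day 4 and 477 CPM on OSK day 7. They passed the filter through the libraries where they are high, so their rise is not an independent result. The part of these other cell types in the members' values was not tested.

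Across the 20 libraries, on the log2(CPM + 1) scale, the members fell into groups by how they moved together. Lyz2 had a Pearson r of 0.9 with Cd14, 0.89 with Ctss, 0.86 with Fcer1g, 0.85 with Tyrobp and 0.79 with Csf1r. Without OSK day 0 (19 libraries) these were 0.86, 0.95, 0.8, 0.8 and 0.7. Tyrobp and Fcer1g had r = 0.95, and Csf1r and Tyrobp also 0.95 (0.91 and 0.89 without OSK day 0). Laptm5 ran against the set, with r = -0.55 to Lyz2 and -0.67 to Cd14 (-0.64 and -0.8 without OSK day 0). Cd68 and Ptprc had r = 0.41 and -0.19 to Lyz2. These points share arms and days, and both genes of a pair share the depth of each library, so the values are descriptions.

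**Figure D4:**
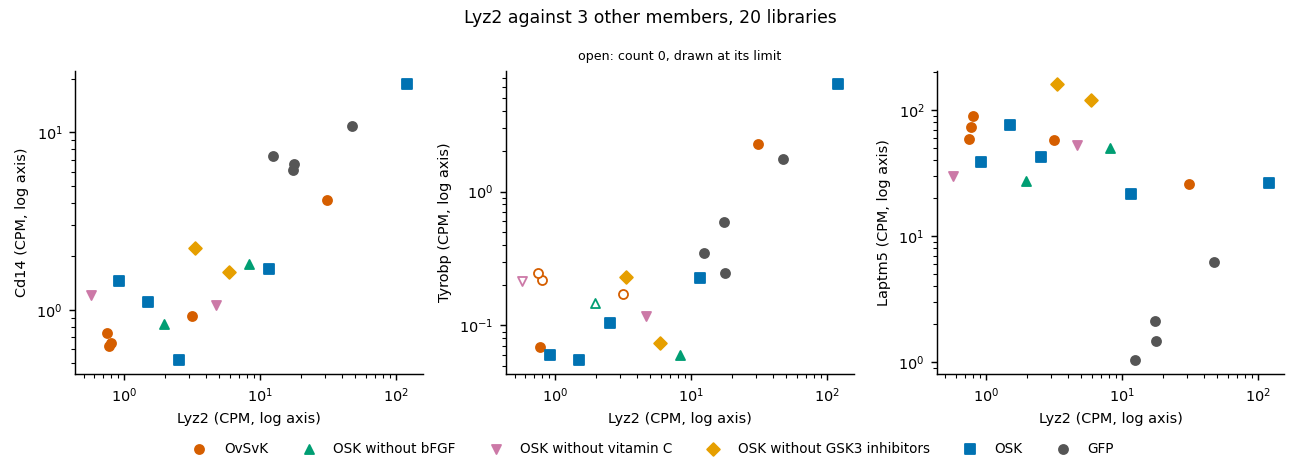
Cd14, Tyrobp and Laptm5 against Lyz2 in the 20 libraries, in CPM on log axes, coloured by arm, with open points for counts of 0 drawn at their limit. Cd14 and Tyrobp are highest where Lyz2 is highest, while the 4 GFP libraries hold the lowest Laptm5, from 1.05 to 6.28 CPM.

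Among 14213 genes with at least 2 CPM in 1 library, those closest in pattern to the adaptors included genes of the macrophage lists. Tyrobp was most like C1qc (r = 0.99), C1qa and Myo1f, and Fcer1g most like Fcgr3 (r = 0.97), P2ry6 and Guca1a. Csf1r was most like Srf, C1qc and C1qa. For Lyz2 (Fez2, Gpx7, Akr1a1), Cd14 (Pkdcc, Fam132a, Fdx1l), Ctss (Ralb, Fopnl, Atxn10) and the mean of all 9 (Gemin7, Urgcp and Fam129b, r = 0.95 to 0.94) the 3 closest genes over the 20 libraries were none of the listed macrophage genes. Without OSK day 0, Adgre1 (under its older symbol Emr1) was at rank 5 for the mean of all 9 (r = 0.89). Laptm5 was closest to Card10, Sigirr and Asap2, Cd68 to Lgals3 (r = 0.84), Mocos and Entpd4, and Ptprc to Mrpl32 (r = 0.71), Gclm and Rtn3.

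The table of the whole series holds 6 of the 9 members, as scores the authors scaled to 1 common distribution (median 374, highest 58542), and is the only source for mESC and WT MEFs. Lyz2 scored 162 in mESC and 524 in MEFs, and Csf1r 12 in mESC and 190 in MEFs. The same genes scored 7 and 2 on OvSvK day 4, 12 and 8 on OSK day 7, and 164 and 20 on GFP day 7. Both genes were thus higher in MEFs than in the last library of any of these arms. On the first days, Lyz2 scored 350 on OvSvK day 0 and 1134 on OSK day 0. Cd14 scored 10 in mESC and 64 in MEFs, with 3 on OvSvK day 4, 16 on OSK day 7 and 108 on GFP day 7.

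Laptm5 scored 1556 in mESC and 126 in MEFs. It scored 913 on OvSvK day 4, 622 on OSK day 7 and 20 on GFP day 7, so these OvSvK and OSK libraries lay between MEFs and mESC and GFP lay below both. Without GSK3 inhibitors it scored 1948 on day 7, above mESC. Cd68 scored 106 in mESC and 56 in MEFs, and Ptprc 80 in mESC and 120 in MEFs. The mESC and MEF values are 1 sample each, from an older RSEM version and the mm9 build, so they carry no test, and Tyrobp, Fcer1g and Ctss were not analysed in them.

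**Figure D5:**
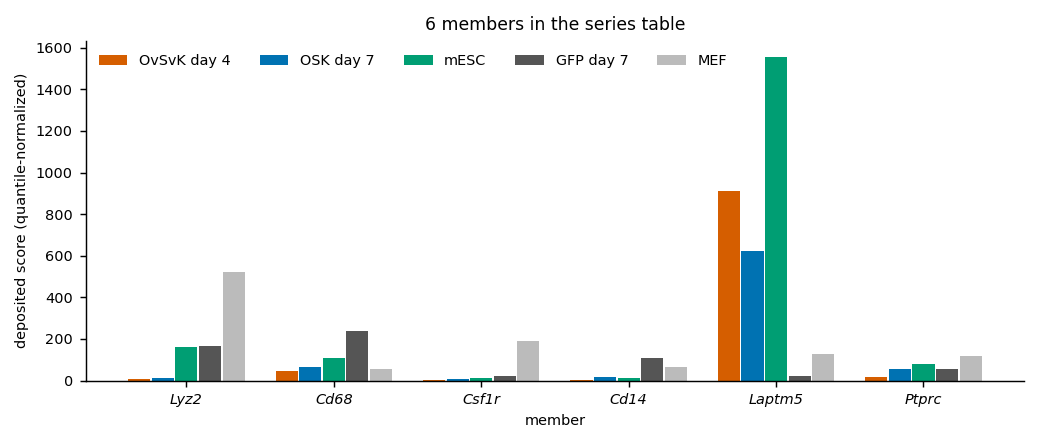
Deposited scores of the 6 members in the series table, on a linear axis, for OvSvK day 4, OSK day 7, mESC, GFP day 7 and MEF, 1 sample per bar. Laptm5 has its highest bar in mESC (1556) and Lyz2 in MEF (524).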

How the data were processed

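RNA was sequenced from 20 libraries of 1 library per arm and day, with Trizol extraction and TruSeq RNA libraries per the labels' protocols, and 2 re-analysed samples. Expected counts and TPM per gene were deposited for the 20 libraries, made by the authors with RSEM 1.2.4 on mm10 per the submitters' processing notes, and mESC and MEF with RSEM 1.1.21 on mm9. No source used here gives the aligner settings. The deposited series table holds whole-number values with 1 median and 1 maximum in every column, so they were read as a score scaled by the authors, for 12897 genes. Symbols came from that table for 12897 identifiers and from the mm10 annotation for 10788, and 445 had none.

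Expected counts were rounded and tested with edgeR 4.0.16 (quasi-likelihood, robust, TMM scaling, filterByExpr by arm) in R 4.3.3, adjusted by Benjamini-Hochberg over all genes tested, with a threshold of 0.05. OSK against GFP used days 1, 3, 5 and 7 with day as a block, OvSvK against OSK days 0, 1 and 3, the slopes a line per arm over 14 libraries, and the omissions days 3 and 7. limma 3.58.1 on log2(TPM + 1), for genes of at least 1 TPM in 2 libraries, DESeq2 1.42.0, other filters, a GC correction and left-out libraries were alternatives. The edgeR fits were tested on simulated data. Levels, ratios and 95% exact intervals came from python 3.11.15, numpy 2.4.6, pandas 2.3.3 and scipy 1.17.1, and figures from matplotlib 3.10.9. A count of 0 was given a limit of 3 counts. Totals ran from 7872277 to 20720718 counts per library, which limits genes under about 10 counts most.

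Some listed genes are not reported here. The members and lists were chosen with earlier results of these data known. All members were named, with up to 6 genes of smallest p per list and comparison, up to 4 of highest TPM, and the genes most alike in pattern. C1q, Spi1, Trem2, Fcgr3 and the promoters shown were chosen after their values were seen, as were the likeness without OSK day 0, Acp5 and Atp6v0d2 over the GFP days, and the ratios of later days in TPM or from the next sampled day.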

Additional observations from a re-analysis of the deposited data

Results flagged for a closer look

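Laptm5, the lysosomal membrane protein gene, was singled out because its change over days differed between 2 arms by a test of the difference itself. The slope in OSK minus that in GFP was 0.60 per day on the log2 scale (edgeR's quasi-likelihood test, adjusted p = 0.0478), from 26.6, 21.6, 42.5, 76.7 and 38.6 CPM on OSK days 0, 1, 3, 5 and 7 and 6.28, 2.12, 1.47 and 1.05 CPM on GFP days 1, 3, 5 and 7. The value lay between 0.43 and 0.76 in 19 alternatives and passed the threshold in 5 of them.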

How the results depend on the processing

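Counts of members past the threshold (edgeR, adjusted p of 0.05) changed under some alternatives, and the cause was not tested. For OvSvK against OSK, where 0 members were called, DESeq2 and a fit over all 20 libraries called 2 (Lyz2 and Cd68), and the fit with no filter on low counts and the fit with the GC trend removed called 1 (Lyz2). For the OvSvK slope, with 1 called, DESeq2 and the fit with no filter called 2 (Lyz2 and Tyrobp). For the OSK slope, with 4 called, limma and the fit without OSK day 0 and GFP day 1 called 1 (Lyz2). For the GFP slope, with 0 called, DESeq2 called 1 (Laptm5). For the slope in OSK minus GFP, with 1 called, limma, no filter, and leaving out OSK day 0 and GFP day 1 each left 0. For OvSvK minus GFP, with 0 called, DESeq2 called 2 (Lyz2 and Laptm5). Without GSK3 inhibitors, with 2 called, the GC correction left 1 (Laptm5) and the fit over all 20 libraries 0.

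With each library or day left out in turn, the count ran from 2 to 4 for OSK against GFP (2, Lyz2 and Cd14, without day 3 or day 5), 0 to 2 for OvSvK against OSK (2 without day 3), 0 to 1 for the OvSvK slope (0 without OvSvK day 0 or 3), 1 to 5 for the OSK slope (1, Lyz2, without OSK day 0 or 5), 0 to 1 for the GFP slope (1 without OSK day 7), 0 to 1 for OSK minus GFP, 0 to 1 for OvSvK minus GFP (1 without OSK day 0 or 7) and 0 to 2 without GSK3 inhibitors (0 without the day 7 library of that arm). It was 0 throughout without bFGF and without vitamin C. No result past the threshold in the main fits changed direction under any alternative run, though Cd14 in OSK came to -0.00 per day. This does not extend to results not past the threshold, such as the Cd68 slope in OvSvK, at -0.01. Of 27 ratios of later days to the first day, alternatives chosen after seeing the data turned 4: Cd68 in OSK was at 1.75 on the TPM scale (0.848 in CPM), Fcer1g in OSK at 1.01 from day 1, and Cd14 and Fcer1g in GFP at 1.15 and 1.45 from day 3. On the TPM scale 7 more moved beyond their interval, and with the first library left out 10 of 16 did. Of 25 ratios of last to first day, 5 moved by more than their counting interval on the TPM scale, 4 with the library total alone and 0 with DESeq2 size factors. Tyrobp, Fcer1g and Ptprc, at 0 to 17 counts in most libraries, are limited by depth. No paired analysis was possible because the labels give no replicate numbers; libraries were matched only by day, which was the block in OSK against GFP.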

Other observations

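The 10 genes most like the mean of the 9 members over the 20 libraries were Gemin7, Urgcp, Fam129b, Loxl3, Nosip, Ube2v1, Sphk2, Thap4, Psmd8 and Pex19, with r of 0.95 to 0.93. Without the OSK day 0 library, Gemin7 was again first (r = 0.91), 5 of the 10 were shared, and Adgre1 (Emr1), a listed macrophage gene, was at rank 5 (r = 0.89).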
